A study of Homo sapiens with 38 samples.

Results

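The clustered histone genes are the replication-dependent genes for the linker histone H1 and the core histones H2A, H2B, H3 and H4. They were taken as every gene whose identifier in the expression table begins with HIST1H, HIST2H, HIST3H or HIST4H and occurs once, which gave 72 of the 25504 genes with a unique name. Of these, 6 encode H1, 17 encode H2A, 20 encode H2B, 14 encode H3 and 15 encode H4, with 55 in the HIST1 cluster, 13 in HIST2, 3 in HIST3 and 1 in HIST4. RNA was measured in the RKO line, established from a human colorectal cancer. Cells were treated with DMSO alone, the LSD1 inhibitor NCD38, NCD38-β2P4 (labelled P4_NCD38) or NCD38-β2PIPP (labelled PIPP_NCD38). All treatments contained 0.1% DMSO, and NCD38 and both conjugates were given at 2 µM. Collection was on day 30 or on day 4, with a medium change every 5 days. On this schedule the collection on day 4 came before the first change, so the days also differ in this. NCD38-β2P4 and NCD38-β2PIPP carry NCD38 on pyrrole-imidazole polyamides that differ by an imidazole in place of a pyrrole. Each of the 8 conditions had 1 library, so that no condition was replicated, and the 4 libraries of each day were treated as that day's group. The labels give 2 µM for both days, whereas the Methods give this dose in mM for day 4. Whether the libraries of the 2 days were made together is not given in the sources used here, so that the day and any difference in library making cannot be told apart, nor can fewer cells with an RNA and less of it per cell.

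Histones package DNA: the core histones form the nucleosome and H1 binds the linker DNA between nucleosomes. The clustered genes are transcribed mainly in S phase, when new DNA must be packaged, and their mRNAs normally end not in a poly(A) tail but in a conserved stem-loop that is bound by the stem-loop binding protein SLBP and formed with the U7 small nuclear RNA. These libraries were prepared with a kit that selects poly(A) RNA, so the values below are levels of what passed that selection, as FPKM (fragments per kilobase, scaled to the mapped fragments of a library), and not levels of total histone mRNA.

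The stem-loop was looked for as a 5′ arm GGNNCT, a loop TNTN and a 3′ arm AGNNCC, 16 bases in a row, on the sense strand within 200 bases after the stop codon, on GRCh37 with GENCODE release 44. It was found in 67 of 67 members that could be searched, and in 71 of 19994 coding genes (0.355%) when these members are included. The 4 coding genes with a match that are not members, 0.0201% of the nonmembers, were H3-7, H2AX, MESP1 and TIPARP. A match is a description of letters and not a test of function. The match began 23 to 68 bases after the stop codon (median 36), and 39 of the 67 members shared the letters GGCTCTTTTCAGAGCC. The sites of the most abundant member of each histone, and of 2 members that moved oppositely between the days (HIST1H2BD and HIST1H2BJ), are shown because they carry the element that ends the usual histone mRNA. Capitals mark the 16-base motif, and 5 flanking bases stand on either side.
HIST1H1C: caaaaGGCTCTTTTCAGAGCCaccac
HIST2H2AA3: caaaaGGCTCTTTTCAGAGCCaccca
HIST1H2BK: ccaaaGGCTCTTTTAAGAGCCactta
HIST1H2BD: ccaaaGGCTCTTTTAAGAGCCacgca
HIST1H2BJ: ctaacGGCTCTTTTAAGAGCCaccca
HIST1H3H: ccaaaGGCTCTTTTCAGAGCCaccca
HIST1H4K: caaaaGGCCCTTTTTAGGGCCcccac
The motif lay on the minus strand of chromosome 6 from 26055972 to 26055987 for HIST1H1C, from 27114145 to 27114160 for HIST1H2BK, from 27100100 to 27100115 for HIST1H2BJ and from 27798956 to 27798971 for HIST1H4K. It lay on the plus strand of chromosome 6 from 26158815 to 26158830 for HIST1H2BD and from 27778294 to 27778309 for HIST1H3H, and on the minus strand of chromosome 1 from 149813790 to 149813805 for HIST2H2AA3. HIST1H2BK, HIST1H2BD and HIST1H2BJ had the same 16 letters, whereas their flanking bases differed. Whether the letters of the site go with the day difference was not tested.

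GENCODE annotates at least 1 transcript running more than 100 bases past the stem-loop for 18 of the 67 members, and the other 49 have no transcript that runs more than 11 bases past it. The mean level over the 8 libraries had a median of 3.48 FPKM (range 0 to 52.0) in the 18 and of 0.673 FPKM (range 0 to 58.5) in the 49. HIST2H2BE, with an annotated end 1729 bases past the stem-loop, and HIST2H2AA3, with an end 285 bases past it, were in the first group, whereas HIST1H2BK and HIST1H1C, the most abundant members, and HIST2H2AA4, the identical copy of HIST2H2AA3, were in the second. The ranges overlapped throughout, and no test was made of this difference, since the annotation used by the authors is not known.

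Promoter sequences of RefSeq genes on GRCh38.p14 were matched for 60 members. Both strands were searched for 3 motifs. The search covered the 250 bases before the start and a short stretch past it, in members and all promoters alike. Only the 250 bases are printed below. The octamer ATTTGCAT, bound by the factor OCT1 in H2B promoters, was present in 24 of 60 members (40%) against 2.19% of 27305 promoters, with 12 of 16 H2B and 11 of 15 H2A promoters holding it. CCAAT, read by NF-Y, was present in 85.0% against 39.7%, including all 6 H1, 15 H2A, 16 H2B and 12 H3 promoters but 2 of 11 H4 promoters. The stretch matched to HIST1H3D is the same as that matched to HIST1H2AD, so it is counted under both H3 and H2A. Several divergent H2A and H2B genes, such as HIST1H2AG with HIST1H2BJ and HIST2H2AC with HIST2H2BE, were matched to overlapping stretches. The same motif sites are counted there under both H2A and H2B, so these counts are not of separate promoters. TATAAA was present in 66.7% against 14% of all promoters. Promoters of 3 members are shown, the first because it lies between the divergent genes HIST2H2AC and HIST2H2BE, the other pair because HIST1H2BK and HIST1H2BJ moved in opposite directions between the days. Capitals mark the 3 motifs on either strand, and TATAAA and its reverse complement TTTATA may overlap.
HIST2H2AC, chr1:149886668-149886917, plus strand: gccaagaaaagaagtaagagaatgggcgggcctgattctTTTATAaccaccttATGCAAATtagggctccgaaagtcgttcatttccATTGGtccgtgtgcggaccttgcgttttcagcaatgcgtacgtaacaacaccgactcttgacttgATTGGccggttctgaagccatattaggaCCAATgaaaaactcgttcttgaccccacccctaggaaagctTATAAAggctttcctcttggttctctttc
HIST1H2BK, chr6:27146859-27147108, minus strand: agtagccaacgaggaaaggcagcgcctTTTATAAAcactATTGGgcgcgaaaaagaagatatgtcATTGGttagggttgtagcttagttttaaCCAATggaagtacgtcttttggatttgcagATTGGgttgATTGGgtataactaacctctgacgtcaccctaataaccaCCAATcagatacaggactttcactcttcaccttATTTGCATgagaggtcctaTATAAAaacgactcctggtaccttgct
HIST1H2BJ, chr6:27132796-27133045, minus strand: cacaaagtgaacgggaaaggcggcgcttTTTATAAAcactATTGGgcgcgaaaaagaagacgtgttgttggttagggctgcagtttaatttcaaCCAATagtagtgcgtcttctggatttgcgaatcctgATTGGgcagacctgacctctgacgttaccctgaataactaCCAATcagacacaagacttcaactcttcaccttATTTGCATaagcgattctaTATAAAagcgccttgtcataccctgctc
All 3 promoters held all 3 motifs.

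The libraries came to about 13500000 to 24800000 fragments, estimated from the pile of low FPKM values left by single fragments, and FPKM summed to between 677739 and 822230. At this depth, 1 FPKM of a 500-nt transcript corresponds to about 4.05 to 7.43 fragments, so values of a few FPKM rest on few fragments. KDM1A, which encodes LSD1, was at 39.4 to 46.1 FPKM on day 30 and at 38 to 72.1 FPKM on day 4 (adjusted p = 0.155 between the days). The epithelial keratin KRT18 (76.2 to 121 FPKM) and the intestinal factor CDX2 (7.49 to 11.6 FPKM) were expressed in all 8 libraries, whereas VIL1 and LGR5 were listed at 0 and KRT19 and CDH1 stayed under 0.467 FPKM. Of 13 markers of fibroblasts, endothelial cells and leukocytes, 7 were listed at 0 in all libraries and the highest reached 0.0801 FPKM.

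Next, the members detected on each day were counted, reading values under 0.001 FPKM as 0. Of the 72 members, 62 were above 0 in at least 1 library, 59 on day 30 and 61 on day 4, and 40 were above 0 in all 8. The 10 members listed at 0 throughout were HIST1H1B, HIST1H1T, HIST1H2AA, HIST1H2BA, HIST1H2BB, HIST1H3I, HIST1H4F, HIST1H4G, HIST1H4L and HIST3H3, among which HIST1H1T, HIST1H2AA, HIST1H2BA and HIST3H3 are known as testis histone genes. A listed 0 may also be an estimate that failed. HIST1H1A was above 0 on day 30 alone, at 0.0875 FPKM in the DMSO library, about 0.959 fragments. HIST1H2AL, HIST1H2BM and HIST1H3C were above 0 on day 4 alone, at up to 0.257 FPKM, so that these day-specific detections are of the order of a single fragment.

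At a level of at least 1 FPKM, each treatment had more members on day 4 than on day 30. Among the DMSO libraries, 30 members passed on day 30 and 43 on day 4. The NCD38 libraries had 33 and 38, the NCD38-β2P4 libraries 27 and 37, and the NCD38-β2PIPP libraries 30 and 33. The lowest day 4 library thus equalled the highest day 30 library. As a share of the members this was 37.5% to 45.8% on day 30 and 45.8% to 59.7% on day 4, whereas the share of all genes at or above 1 FPKM was 42.3% to 42.9% on day 30 and 33.6% to 41.2% on day 4. In all 4 libraries of a day, 24 members passed on day 30 and 28 on day 4, 23 of them on both. HIST1H2AI, HIST1H2BE, HIST1H2BJ, HIST1H3G and HIST1H4H passed in every day 4 library but not in every day 30 library, and HIST1H3D the reverse. HIST1H4H missed day 30 through the NCD38-β2P4 library alone, at 0.860 FPKM, while its mean was 4.02 FPKM on day 30 and 2.81 FPKM on day 4.

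**Figure D1:**
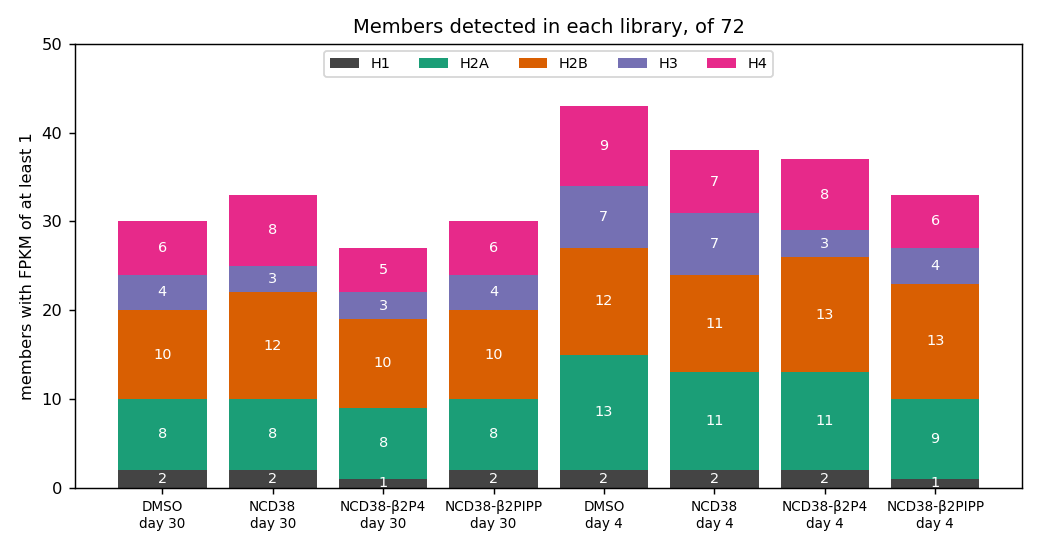
Number of the 72 members with an FPKM of at least 1 (vertical axis) in each of the 8 libraries, split by histone. The day 30 libraries held 27 to 33 such members and the day 4 libraries 33 to 43.

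The histones were then taken one by one. For H2A, 8 of 17 members passed in each day 30 library, and 9 to 13 on day 4. For H2B, 10 to 12 of 20 passed on day 30 and 11 to 13 on day 4. H3 had 3 to 4 of 14 on day 30 and 3 to 7 on day 4, H4 had 5 to 8 of 15 and 6 to 9, and H1 had 1 to 2 of 6 on both days. At a level of at least 5 FPKM, the order between the days was not kept, with 13 members in all 4 libraries of day 30 and 11 in those of day 4. No H3 member reached 5 FPKM in any library.

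The sum over members was dominated by few genes. HIST1H2BK, HIST1H1C, HIST2H2AA3 and HIST2H2AA4 made up 50.2% of the mean summed FPKM, and the 10 members with a mean of at least 10 FPKM made up 78.9%. For the tests that follow, genes with a mean of at least 1 FPKM over the 8 libraries were used, 10865 in all, among them 34 of the 72 members: 2 of H1, 11 of H2A, 11 of H2B, 4 of H3 and 6 of H4. Of the 34, HIST1H2AH, HIST1H2AI, HIST1H2AJ and HIST1H2BJ passed this filter through day 4 alone, with day 30 means under 1 FPKM. The 38 members under the filter were not tested. Values per library are given below in the order DMSO, NCD38, NCD38-β2P4 and NCD38-β2PIPP, and day differences are differences of log2(FPKM + 1), day 30 minus day 4, from limma with terms for day and treatment.

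**Figure D2:**
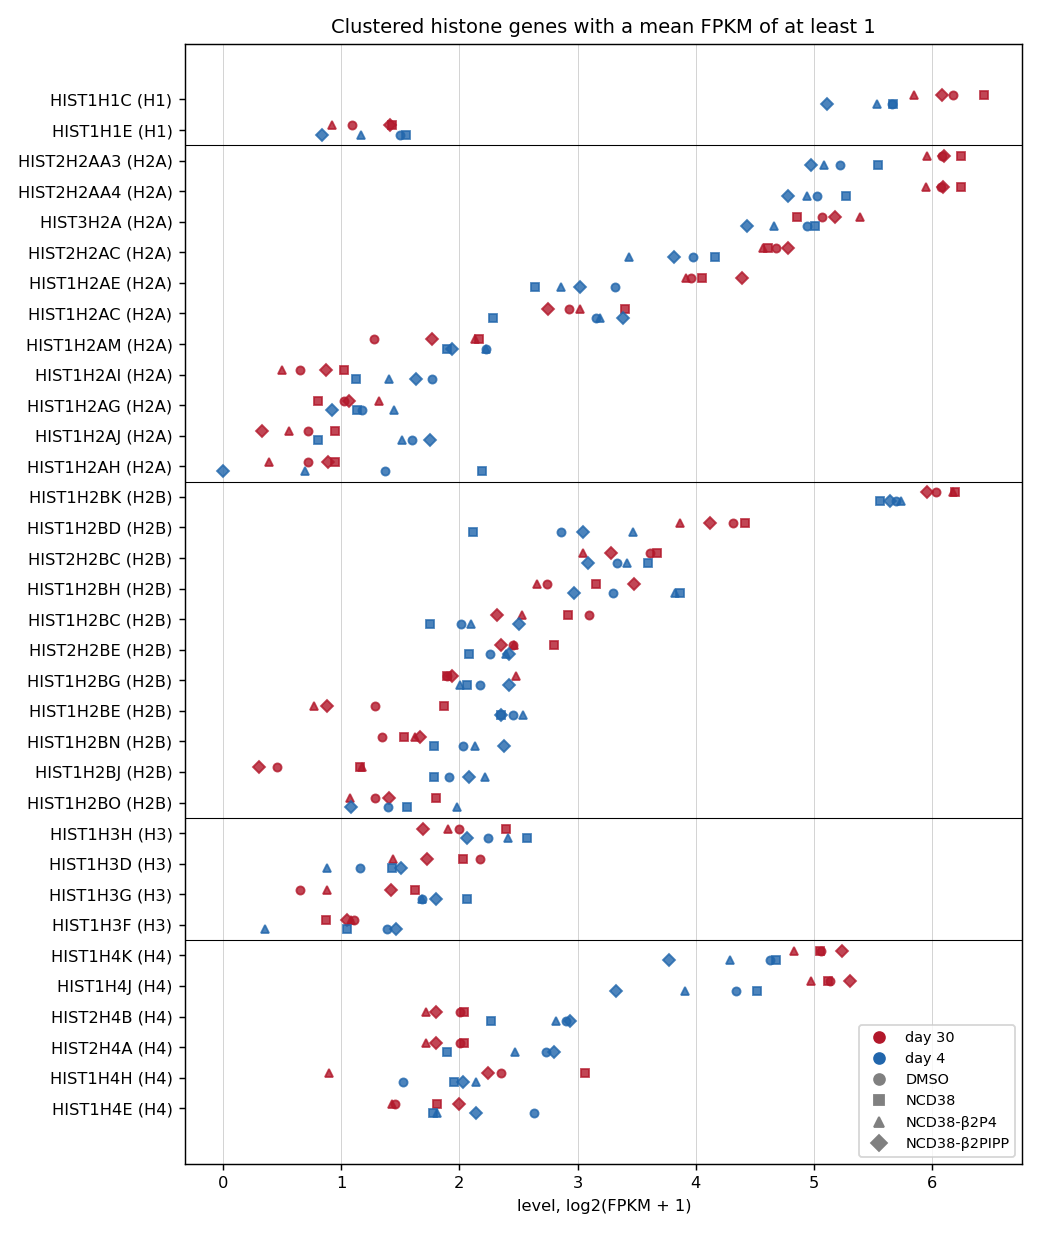
Level of each of the 34 tested members as log2(FPKM + 1) (horizontal axis) in the 8 libraries, grouped by histone and ordered by mean level. Colour gives the day and the symbol the treatment. Abundant members such as HIST2H2AA4 and HIST1H4J lie to the right on day 30, and HIST1H2BJ and HIST1H2BE lie to the left.

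Among the 6 linker histone genes, RNA came almost entirely from HIST1H1C (H1-2), which held 96.7% of the summed H1 level. It stood at 71.3, 86.0, 56.6 and 67.0 FPKM on day 30 and at 49.7, 50, 45.2 and 33.6 FPKM on day 4. All day 30 libraries exceeded all day 4 libraries, with a difference of 0.64 ± 0.16 (SE, adjusted p = 0.0169). HIST1H1E (H1-4) was far lower, at 1.13, 1.7, 0.889 and 1.66 FPKM on day 30 and 1.82, 1.92, 1.25 and 0.791 FPKM on day 4, and its days overlapped. HIST1H1D stayed under 1 FPKM in every library.

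Of the H2A genes, HIST2H2AA3 and HIST2H2AA4 were the highest. HIST2H2AA3 stood at 66.9, 74.8, 61.1 and 67.7 FPKM on day 30 and at 36.3, 45.6, 33.0 and 30.5 FPKM on day 4. HIST2H2AA4 stood at 66.5, 75.0, 60.9 and 67.4 FPKM on day 30 and at 31.5, 37.6, 29.7 and 26.6 FPKM on day 4. Both were higher on day 30 without overlap, by 0.89 ± 0.13 (adjusted p = 0.00308) and 1.09 ± 0.13 (adjusted p = 0.00155). Their annotated transcripts are identical over 534 bases, so the split of fragments between these 2 genes is uncertain and they are not independent results. HIST3H2A followed at 32.6, 28.1, 41.1 and 35.2 FPKM on day 30 and 29.8, 31.2, 24.4 and 20.7 FPKM on day 4, a difference that did not pass the test (0.36 ± 0.20, adjusted p = 0.173).

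HIST2H2AC stood at 24.7, 23.4, 22.8 and 26.5 FPKM on day 30 and at 14.7, 17.0, 9.82 and 13.1 FPKM on day 4. HIST1H2AE stood at 14.6, 15.7, 14.1 and 20 FPKM on day 30 and at 8.98, 5.24, 6.25 and 7.11 FPKM on day 4. Neither overlapped between the days, and both rose, HIST2H2AC by 0.81 ± 0.16 (adjusted p = 0.00824) and HIST1H2AE by 1.12 ± 0.18 (adjusted p = 0.00368). At the low end, HIST1H2AI went the other way, from 1.19 to 2.40 FPKM on day 4 and 0.416 to 1.03 FPKM on day 30 (fell by 0.72 ± 0.20, adjusted p = 0.0249), on an estimated 1.66 to 13.3 fragments per library. HIST1H2AI passed the filter through day 4 alone, so the filter favoured a fall. The other 5 tested H2A genes, HIST1H2AC, HIST1H2AM, HIST1H2AG, HIST1H2AJ and HIST1H2AH, did not pass the test. HIST2H2BE, which faces HIST2H2AC across the promoter printed above, stood at 4.48, 5.96, 4.52 and 4.12 FPKM on day 30 and 3.78, 3.23, 4.25 and 4.36 FPKM on day 4, and did not pass the test (0.23 ± 0.17, adjusted p = 0.290); the difference between these neighbours was not tested.

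Among H2B genes, HIST1H2BK was the highest of all members. It stood at 64.6, 72.2, 71.5 and 61.1 FPKM on day 30 and at 50.9, 46.3, 52.3 and 49.1 FPKM on day 4, a separation without overlap but small in size (0.43 ± 0.13, adjusted p = 0.0316). HIST1H2BD showed the largest rise of any member, with 18.9, 20.4, 13.6 and 16.4 FPKM on day 30 against 6.26, 3.33, 10.1 and 7.28 FPKM on day 4 (1.31 ± 0.32, adjusted p = 0.0163). HIST2H2BC, a pseudogene in the annotation, stood at 11.2, 11.7, 7.26 and 8.72 FPKM on day 30 and 9.10, 11.1, 9.67 and 7.5 FPKM on day 4, and HIST1H2BH at 5.68, 7.90, 5.32 and 10.1 FPKM against 8.88, 13.6, 13.1 and 6.83 FPKM. The days overlapped for both.

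Of the tested H2B members with a mean under 5 FPKM, HIST1H2BE, HIST1H2BJ and HIST1H2BN were lower on day 30, while HIST1H2BC, HIST2H2BE, HIST1H2BG and HIST1H2BO did not pass the test. HIST1H2BE stood at 1.44, 2.65, 0.700 and 0.838 FPKM on day 30 and at 4.49, 4.10, 4.81 and 4.11 FPKM on day 4. HIST1H2BJ stood at 0.370, 1.23, 1.26 and 0.237 FPKM on day 30 and at 2.76, 2.44, 3.66 and 3.23 FPKM on day 4. Neither gene overlapped between the days, and HIST1H2BE fell by 1.23 ± 0.24 (adjusted p = 0.00741) and HIST1H2BJ by 1.22 ± 0.22 (adjusted p = 0.0058). They rest on an estimated 2.55 to 22.8 and 1.64 to 14.5 fragments per library. HIST1H2BJ passed the filter through day 4 alone, so the filter favoured a fall in this gene. HIST1H2BN also fell, by 0.54 ± 0.14 (adjusted p = 0.0202). HIST1H2BJ and HIST1H2BK, whose promoters hold the same 3 motifs and whose transcripts are identical at 85.0% of 480 bases, went in opposite directions. The part of their sequences in this was not tested.

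H3 was the least abundant histone, with 2.86% of the summed level, and its highest gene, HIST1H3H, stood at only 2.99, 4.26, 2.73 and 2.23 FPKM on day 30 and at 3.74, 4.93, 4.32 and 3.17 FPKM on day 4 (adjusted p = 0.0739). HIST1H3D was higher on day 30, at 3.52, 3.08, 1.72 and 2.31 FPKM against 1.24, 1.69, 0.838 and 1.84 FPKM (0.60 ± 0.17, adjusted p = 0.0259), in each treatment but with overlapping days. HIST1H3G was lower, at 0.574, 2.08, 0.839 and 1.67 FPKM against 2.22, 3.19, 2.21 and 2.50 FPKM (fell by 0.67 ± 0.16, adjusted p = 0.0164). HIST1H3F ranged from 0.277 to 1.75 FPKM and did not pass. HIST2H3A and HIST2H3C, identical over 518 bases, had the same listed value in 7 of 8 libraries and stayed under the filter.

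For H4, HIST1H4K and HIST1H4J held most of the level. HIST1H4K stood at 32.4, 32.1, 27.4 and 36.7 FPKM on day 30 and at 23.8, 24.6, 18.6 and 12.6 FPKM on day 4. HIST1H4J stood at 34.3, 33.8, 30.4 and 38.6 FPKM on day 30 and at 19.3, 22.0, 14 and 9.04 FPKM on day 4. Both were higher in every day 30 library, by 0.70 ± 0.22 (adjusted p = 0.0395) and 1.11 ± 0.26 (adjusted p = 0.0135), but they differ at only 4 of 387 bases, so fragments could be assigned to either. HIST2H4B went down, at 3.0, 3.12, 2.29 and 2.49 FPKM on day 30 against 6.49, 3.82, 6.05 and 6.67 FPKM on day 4 (fell by 0.84 ± 0.20, adjusted p = 0.014). HIST2H4A, identical to it over 396 bases, had the same day 30 values and 5.66, 2.73, 4.54 and 5.98 FPKM on day 4 (adjusted p = 0.0648), so the call of HIST2H4B is likewise not that of a separable gene.

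In all, 10 of the 34 tested members were higher on day 30 and 6 were lower (adjusted p under 0.05), and 18 did not pass. Without the 4 members that the filter admitted through day 4 alone, 10 of 30 were higher and 4 lower. Among all 10865 tested genes, 30.2% were higher and 31.7% lower by the same rule, a share close to that of the members upward and above it downward. The median difference was -0.04 over the 34 members and -0.02 over all tested genes. In 9 members every day 30 library exceeded every day 4 library, and in 6 the reverse held, against 29.5% and 33.1% of all tested genes. By histone, 1 of 2 tested H1 genes was higher, as were 4 of 11 H2A genes, 2 of 11 H2B genes, 1 of 4 H3 genes and 2 of 6 H4 genes. Lower genes numbered 1 in H2A, 3 in H2B, 1 in H3 and 1 in H4.

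The direction went with the level. Of the 10 members with a mean of at least 10 FPKM, 9 were higher on day 30, 0 were lower and HIST3H2A did not pass, with a median difference of 0.85. This mean is over both days, so the split draws on the values compared. HIST1H2AE (day 30 mean 16.1, day 4 mean 6.9 FPKM) and HIST1H2BD (17.3 and 6.73 FPKM) reached 10 FPKM through day 30 alone. The split thus favoured a rise in this group. HIST1H2BH, with means of 7.25 FPKM on day 30 and 10.6 FPKM on day 4, fell in the lower group. Of the 24 members between 1 and 10 FPKM, 1 was higher and 6 were lower, with a median of -0.28. Without HIST1H2AH, HIST1H2AI, HIST1H2AJ and HIST1H2BJ, which the filter admitted through day 4 alone, 1 of 20 was higher and 4 were lower, with a median of -0.12, and the median over the remaining 30 members was 0.03. Across the 34 members, the day difference had a Pearson's r of 0.68 and a Spearman's rho of 0.68 with the log2 mean level; the members share the same 8 libraries, and some share fragments, so this is a description. Without those 4 members r was 0.64 and rho 0.65 (n = 30). All tested genes went the other way, with a median of -0.40 at 10 FPKM and above and 0.31 below (r = -0.18 and rho = -0.27 over 10865 genes). Of 699 other tested genes with transcripts of at most 861 bases, 28.8% were higher and 21.0% lower, with a median of 0.04.

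**Figure D3:**
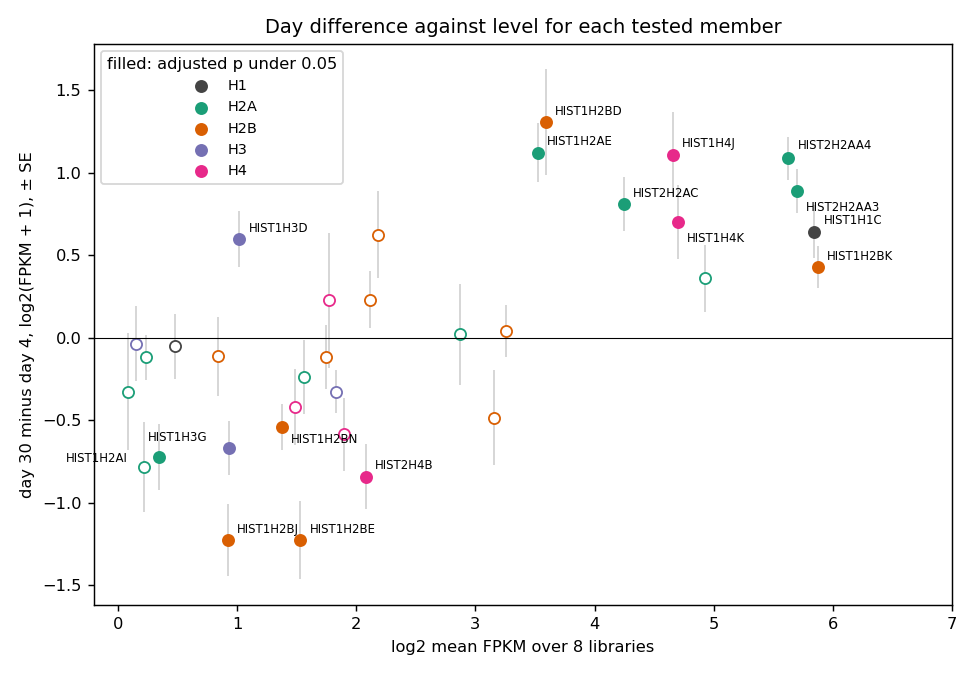
Difference between day 30 and day 4 in log2(FPKM + 1), with its standard error (vertical axis), against the log2 mean FPKM over 8 libraries (horizontal axis) for the 34 tested members. Filled points passed the test at an adjusted p under 0.05. Members at 10 FPKM and above lie above 0, and all 6 lower calls lie under 5 FPKM.

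Other properties also moved with the day. Over 10091 tested genes with a known sequence, the day difference had a Spearman's rho of -0.68 (Pearson's r = -0.63) with GC content, and the matched members had a median GC content of 58.3% against 49.6% for tested genes. Within the members the same correlation was 0.02 (r = 0.03, n = 33). When the median of genes of like GC content was subtracted, all 10 members at 10 FPKM and above were positive, with a median of 1.58, and 19 of the 23 lower ones were positive, 6 of which had been so before and 13 of which changed sign, with a median of 0.39. Among the 6 members called lower, HIST1H2AI, HIST1H2BN and HIST1H3G turned positive, at 0.051, 0.235 and 0.077, whereas HIST1H2BE, HIST1H2BJ and HIST2H4B stayed negative, at -0.554, -0.586 and -0.121. Noncoding RNAs that lack a poly(A) tail moved as well: of 28 tested, 16 were higher on day 30 and 2 lower, with a median of 1.30, beside 30.2% and 31.7% of all tested genes. Among those called higher, RNU12, RNU4ATAC and SCARNA21 were listed at 0 in every day 4 library. SCARNA9 was at 0.354 to 0.877 FPKM on day 4, and TERC, SCARNA10 and SCARNA13 also had day 4 means under 1 FPKM. All of these passed the filter through day 30 alone, so the filter favoured a rise. Of the 38 such RNAs in the table, 7 were listed at 0 throughout. The summed level of these RNAs was 1621 to 2677 FPKM on day 30 and 1524 to 1998 FPKM on day 4. RN7SK, which regulates transcription elongation, stood at 157 to 182 FPKM on day 30 and 37 to 78.5 FPKM on day 4. RN7SL2, part of the signal recognition particle, was lower on day 30. The part of GC content and of RNAs without a tail in the members' differences was not tested.

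The numbers of calls also depended on single libraries. Without the DMSO library of either day, 5 members were higher and 2 lower, and the same numbers were found without the NCD38-β2P4 library of either day. Leaving out any of the 8 libraries kept the calls of HIST2H2AA3, HIST2H2AA4, HIST1H2AE, HIST1H2BE and HIST1H2BJ, the last of which the filter admitted through day 4 alone. Each of the other 11 called members lost its call at least once. Other settings also ended calls: HIST1H4K lost its call with a pseudocount of 0.1, without a filter and with median-ratio scaling, HIST1H2BD without a filter, HIST1H3D with a pseudocount of 5, and HIST1H2AI with a pseudocount of 5 and without a filter.

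The summed level over all 72 members was 503, 561, 466 and 513 FPKM on day 30 and 381, 381, 351 and 308 FPKM on day 4, with means of 511 ± 39.2 and 355 ± 34.5 FPKM (SD, n = 4 libraries). No library of day 4 reached a library of day 30, and the ratio of the geometric means was 1.44. H2A, at 41.3% of the total, rose most in this sum, from 134 ± 16.6 to 223 ± 9.86 FPKM, a ratio of 1.67. H1 stood at 46.7 ± 8.51 FPKM on day 4 and 72.1 ± 12.5 FPKM on day 30, and H2B at 104 ± 7.24 and 123 ± 10.5 FPKM. H4 stood at 56.7 ± 10.8 FPKM on day 4 and 80.8 ± 10.2 FPKM on day 30, with the lowest day 30 library at 66.7 FPKM just under the highest day 4 library at 66.9 FPKM. H3 alone was lower on day 30 in its mean, 11.1 ± 2.01 against 13.6 ± 1.64 FPKM, with overlapping days. No p-value is given for these sums, as they are scores over a chosen set and are set by the few abundant genes named above.

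**Figure D4:**
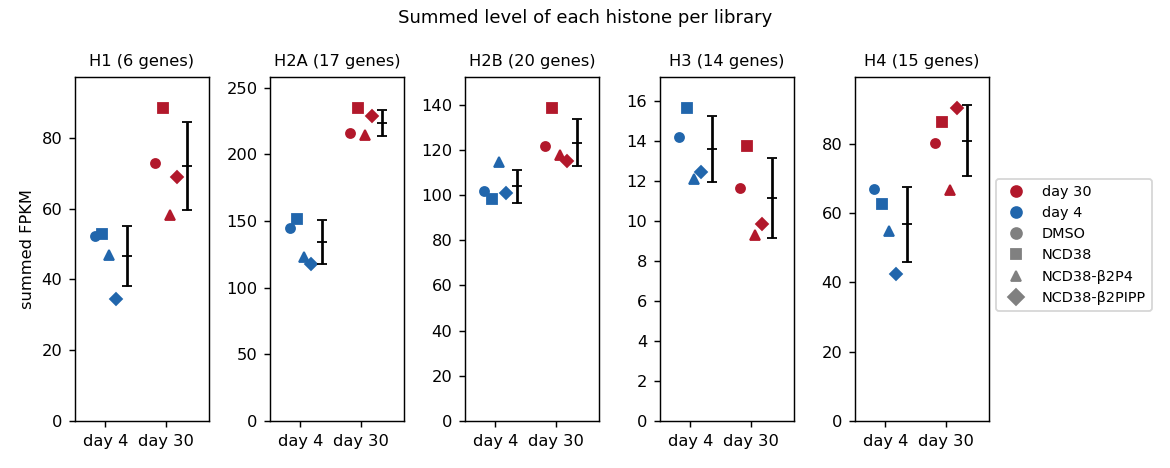
Summed FPKM of all genes of each histone (vertical axis, starting at 0) in each library on day 4 and day 30. Symbols give the treatment, and the black bars give the mean and SD over the 4 libraries of a day. The days do not overlap for H1, H2A and H2B, and they overlap for H3 and H4.

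Genes that act with histones were then compared between the days. Of 23 tested genes for the 3' end processing and transcription of histone mRNA, 9 were higher on day 30 and 8 lower, with a median of -0.10. Over all tested genes, 30.2% were higher and 31.7% lower. SLBP, which binds the stem-loop, was higher, at 50.6 to 59.8 FPKM against 19.5 to 44.3 FPKM (0.80 ± 0.20, adjusted p = 0.0176), as was NCBP2, a subunit of the cap-binding complex (1.58 ± 0.27, adjusted p = 0.00497). LSM10, a subunit of the U7 particle, was lower, at 81.9 to 109 FPKM against 101 to 142 FPKM (fell by 0.43 ± 0.14, adjusted p = 0.042), and the U7 RNA itself, RNU7-1, was listed at 0 in all libraries. NFYB, a subunit of the CCAAT-binding factor, was at 5.02 to 5.96 FPKM on day 30 and 0.192 to 0.761 FPKM on day 4 (2.23 ± 0.15, adjusted p = 0.000591). NFYB passed the filter through day 30 alone, so the filter favoured a rise in this gene. UPF1, a helicase of RNA decay, was at 9.80 to 13.5 FPKM against 33.7 to 41.1 FPKM (fell by 1.68 ± 0.16, adjusted p = 0.000981).

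Of 40 tested S phase genes, 8 were higher on day 30 and 23 lower, with a median of -0.68, beside 30.2% and 31.7% of all tested genes. SLBP is also in the list of the paragraph above. PCNA, the sliding clamp, was higher, at 137 to 191 FPKM against 41.2 to 126 FPKM (1.01 ± 0.23, adjusted p = 0.0129), whereas the replicative helicase genes MCM7, at 68.5 to 81.6 FPKM against 214 to 268 FPKM, and MCM2, at 19.7 to 30.9 FPKM against 72 to 93.1 FPKM, were lower. TK1, a thymidine kinase, was at 25.7 to 35.9 FPKM on day 30 and 69.2 to 139 FPKM on day 4 (fell by 1.59 ± 0.26, adjusted p = 0.00401). Of 24 tested histone chaperones, 7 were higher and 12 lower, with a median of -0.50, beside the same shares of all tested genes. MCM2, CHAF1A and CHAF1B are counted among both the chaperones and the S phase genes. NPM1, the most abundant, was at 1604 to 2037 FPKM on day 30 and 75.5 to 291 FPKM on day 4, and SSRP1, a subunit of FACT, fell by 1.28 ± 0.15 (adjusted p = 0.00159).

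Replication-independent histone variants, most of whose mRNAs are polyadenylated, included genes more abundant than any member, whereas 4 of the 19 in the table were listed at 0 in all libraries. Of 11 tested, 1 was higher and 4 were lower, with a median of -0.41, beside 30.2% and 31.7% of all tested genes. H3F3A, a gene for the replacement histone H3.3, was at 258 to 306 FPKM on day 30 and 53.4 to 134 FPKM on day 4 (1.55 ± 0.28, adjusted p = 0.00599), far above the 14 clustered H3 genes together, which did not exceed 15.6 FPKM. H2AFZ was at 249 to 340 FPKM against 132 to 298 FPKM (adjusted p = 0.138). H2AFX, a variant gene whose mRNA can end in the stem-loop, was lower on day 30, at 90.7 to 107 FPKM against 147 to 229 FPKM (fell by 0.86 ± 0.14, adjusted p = 0.00386). Among linker histones outside the clusters, H1FX was at 71.2 to 91.4 FPKM on day 30 and 120 to 209 FPKM on day 4 (fell by 0.99 ± 0.15, adjusted p = 0.00293) and H1F0 did not pass the test (0.17 ± 0.16, adjusted p = 0.408).

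Finally, the inhibitors were compared with DMSO and with one another, in 6 pairs at the same dose and days. With both days as repeats, none of the 34 members was called in any pair by limma. Of all tested genes, 0.0368% were called for NCD38 versus DMSO, 0.0184% for NCD38-β2P4 versus DMSO, 0.0184% for NCD38-β2PIPP versus DMSO, 0.0092% for NCD38-β2P4 versus NCD38, 0.0184% for NCD38-β2PIPP versus NCD38 and 0.0276% for NCD38-β2P4 versus NCD38-β2PIPP. At an unadjusted p under 0.05, 1 member passed for NCD38 versus DMSO (HIST1H3G, 0.67, 95% interval 0.10 to 1.25, adjusted p = 1.0), 1 for NCD38-β2PIPP versus NCD38 (HIST1H3H, -0.61) and 0 for the other 4 pairs. The half-width of the 95% interval of a member's difference had a median of 0.72 on the log2(FPKM + 1) scale and ranged from 0.46 to 1.46.

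For the abundant members the intervals were as follows. HIST1H2BK differed from DMSO by 0.01 (-0.44 to 0.47) with NCD38, by 0.09 (-0.36 to 0.55) with NCD38-β2P4 and by -0.07 (-0.52 to 0.39) with NCD38-β2PIPP. HIST1H1C differed by 0.14 (-0.43 to 0.70), -0.23 (-0.79 to 0.33) and -0.32 (-0.88 to 0.24), in the same order. Between NCD38-β2P4 and NCD38-β2PIPP, the pair that differs by an imidazole for a pyrrole, HIST1H2BK differed by 0.16 (-0.30 to 0.61), HIST2H2AA4 by 0.01 (-0.45 to 0.46) and HIST1H4J by 0.13 (-0.78 to 1.04). A difference that did not pass the test does not show that these compounds act alike.

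Within a day, each pair compares 1 library with another and allows no test, and members past a 2-fold ratio of FPKM + 1 were counted, beside the share of all tested genes past it. On day 30, 0 of 34 members were past it for NCD38 against DMSO, while 1.0% of all tested genes were past it upward and 0.653% downward. For NCD38-β2P4 against DMSO, 1 member was past it downward, with 0.506% of all tested genes upward and 0.497% downward. For NCD38-β2PIPP against DMSO, 0 members were past it, with 0.81% upward and 0.359% downward. The 1 member was HIST1H4H, at 0.860 FPKM with NCD38-β2P4 against 4.12 FPKM with DMSO. It stood at 7.35 FPKM with NCD38 and at 3.74 FPKM with NCD38-β2PIPP. The low value rests on about 2.43 fragments, and its log2 ratio to DMSO without a pseudocount was -2.26, with a 95% half-width of 1.94 from counting alone.

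Between the inhibitors on day 30, NCD38-β2P4 had HIST1H4H and HIST1H2BE past 2-fold below NCD38, with 0.847% of all tested genes upward and 1.01% downward. NCD38-β2PIPP had 0 members past it against NCD38, with 1.07% upward and 0.847% downward. Between the conjugates, HIST1H4H alone was lower with NCD38-β2P4, with 0.387% upward and 0.856% downward. The members' median log2 ratio to DMSO on day 30 was 0.174 for NCD38, -0.128 for NCD38-β2P4 and 0.018 for NCD38-β2PIPP, against 0.059, 0.062 and -0.014 over all tested genes. On that day 26 of the 34 members were above DMSO for NCD38, beside 59.0% of all tested genes. NCD38-β2P4 had 10 such members beside 62.1%, and NCD38-β2PIPP had 18 beside 46.2%.

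On day 4, 0 members were past 2-fold for NCD38 against DMSO, with 0.874% of all tested genes upward and 4.54% downward. For NCD38-β2P4 against DMSO, HIST1H3F was past it downward, with 1.1% upward and 0.81% downward. For NCD38-β2PIPP against DMSO, HIST1H2AH and HIST1H4J were past it downward, with 10.3% upward and 0.838% downward. HIST1H4J stood at 19.3 FPKM with DMSO and 9.04 FPKM with NCD38-β2PIPP, about 68.6 and 25.8 fragments, a log2 ratio without a pseudocount of -1.09 and a half-width of 0.65 from counting alone. Its near-identical neighbour HIST1H4K stood at 23.8 and 12.6 FPKM. In these comparisons with DMSO, HIST1H3F and HIST1H2AH rested on fewer than 10 fragments per library, and HIST1H2AH was listed at 0 with NCD38-β2PIPP.

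Between the inhibitors on day 4, NCD38-β2P4 had HIST1H2BD above and HIST1H2AH below NCD38 past 2-fold, with 17.1% of all tested genes upward and 0.617% downward. NCD38-β2PIPP had HIST1H2AC above and HIST1H2AH and HIST1H4J below NCD38, with 30.7% upward and 1.1% downward. Between the conjugates, HIST1H3F alone was lower with NCD38-β2P4, with 0.819% upward and 0.957% downward. The median log2 ratio of all tested genes to the mean library was -0.369 in the day 4 library with NCD38 and 0.282 in that with NCD38-β2PIPP, whereas the day 30 libraries stayed within 0.05 of 0. The part of this shift in the ratios was not tested. The members' median log2 ratio to DMSO on day 4 was -0.078 for NCD38, -0.085 for NCD38-β2P4 and -0.144 for NCD38-β2PIPP, against -0.209, 0.095 and 0.175 over all tested genes. The members' summed FPKM was 1.0, 0.923 and 0.809 times that of DMSO on day 4, and 1.12, 0.927 and 1.02 times on day 30.

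**Figure D5:**
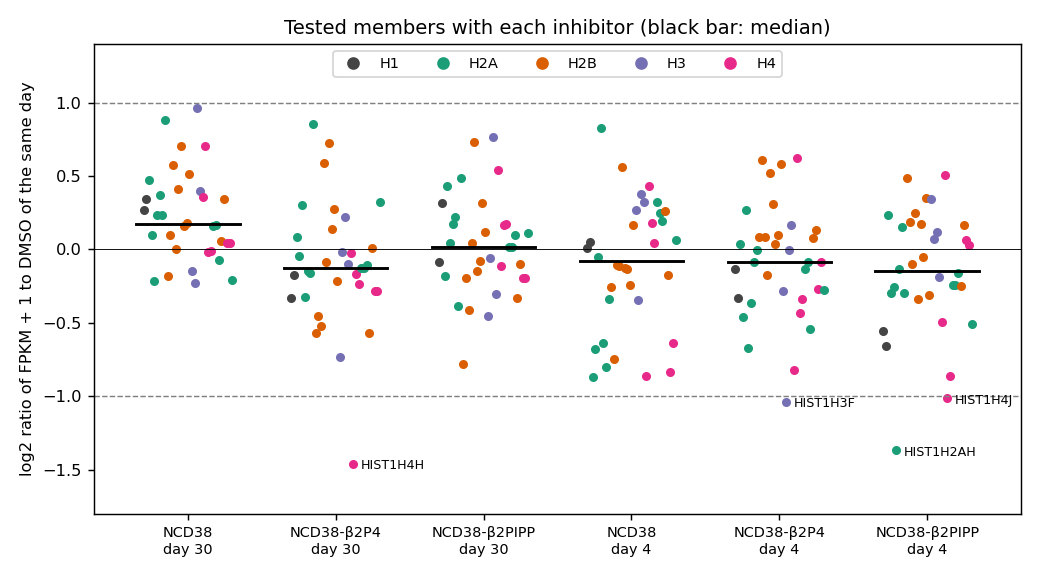
Log2 ratio of FPKM + 1 to the DMSO library of the same day (vertical axis) for the 34 tested members with each inhibitor on day 30 and day 4, coloured by histone. The black bars are medians, the dashed lines mark 2-fold, and members past 2-fold are named, all of them lower than with DMSO.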

How the data were processed

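RNA-seq values of 8 libraries were used. The authors aligned the reads with TopHat per the Methods, whereas the submitters' processing notes list HISAT2 2.2.1.0, Cufflinks and build hg19, and they deposited FPKM per gene estimated by Cufflinks. The annotation and the treatment of fragments that fit several genes are not given in the sources used here. No counts were used, and FPKM of short transcripts depends on the assumed fragment length. Of 25594 entries, 90 with a repeated name were left out. ChIP-seq data were not analysed here.

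The members and lists were chosen with earlier results of these data known. Limma 3.58.1 (R 4.3.3) was fitted to log2(FPKM + 1) of 10865 genes with day and treatment as terms (3 residual degrees of freedom) with Benjamini-Hochberg adjustment over all genes. With 1 library per condition, p-values measure the spread left between days and treatments. The script was tested on simulated data. Of the members, 68 were matched to GENCODE release 44 on GRCh37 by symbol or RefSeq synonym. Named with values per library were the 4 highest members of each histone and the 3 with the largest day difference in each direction, and from each list the 4 highest genes and 2 per direction, as examples. A few further members were added after their values were seen. Depth was estimated from FPKM times transcript length less 200 bases, and intervals from it cover counting error only. Values under 0.001 FPKM were read as 0, a choice made after the values were seen. Alternatives changed the pseudocount, filter, scaling, moderation, terms, libraries, GC content and DMSO comparator.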

Additional observations from a re-analysis of the deposited data

Results flagged for a closer look

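Some ratios to DMSO had opposite signs on the 2 days, each day with 1 library per condition, and these differences between the days were not tested. The median log2 ratio of the members was 0.174 on day 30 and -0.078 on day 4 with NCD38, and 0.018 and -0.144 with NCD38-β2PIPP. HIST1H4H with NCD38-β2P4 was at -1.461 on day 30 and 0.621 on day 4. With NCD38-β2PIPP, HIST1H2AH was at 0.173 and -1.367 and HIST1H4J at 0.167 and -1.015.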

How the results depend on the processing

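The difference of the summed level between the days kept its direction under every alternative run, from 0.432 to 0.570 on the log2 scale (0.527 as reported). The numbers of members called higher and lower on day 30 (10 and 6) ranged from 5 to 11 and from 2 to 9 when 1 library was left out, and came to 5 and 2 without both DMSO libraries and to 5 and 2 without both NCD38-β2P4 libraries. Leaving out both libraries of a treatment gives the same day difference as leaving out 1 of them, so these are not separate checks. With a filter of 1 FPKM in all libraries, which leaves fewer low members to test, 2 were lower. In all 4 libraries of a day, 44 members on day 30 and 44 on day 4 reached 0.1 FPKM, and 13 and 11 reached 5 FPKM. Subtracting the median of genes of like GC content turned 3 members called lower positive, HIST1H2AI to 0.051, HIST1H2BN to 0.235 and HIST1H3G to 0.077, and the other alternatives reversed no called member. Counting only members with a mean of at least 1 FPKM on both days, an alternative chosen after seeing the data, gave 10 higher and 4 lower. The fit of the day comparison already paired the 2 libraries of each treatment through its treatment term, and without that term 11 were higher and 8 lower.

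The 2-fold counts within a day rest on few fragments. In the order NCD38, NCD38-β2P4 and NCD38-β2PIPP against DMSO, NCD38-β2P4 and NCD38-β2PIPP against NCD38, and NCD38-β2P4 against NCD38-β2PIPP, a pseudocount of 0.1 gave 3, 3, 2, 6, 3 and 3 members on day 30, and 5, 3, 5, 7 and 4 on day 4 for all pairs but NCD38-β2PIPP against DMSO, whose count stayed within 1.5 times. A pseudocount of 5 gave 0, 1 and 0 on day 30 for the 3 pairs with NCD38-β2P4, and 0 on day 4 for all pairs but NCD38 against DMSO. Without a filter, NCD38 against DMSO, NCD38-β2P4 against NCD38 and the conjugates gave 1, 5 and 2 on day 30. The day 4 counts were then 2, 5 and 4 against DMSO, 5 for NCD38-β2P4 against NCD38 and 3 between the conjugates. With 1 FPKM required in all libraries, the pairs with NCD38-β2P4 gave 0 on day 30, and on day 4 gave 0 against DMSO, 1 against NCD38 and 0 against NCD38-β2PIPP, while NCD38-β2PIPP against DMSO gave 1. Median-ratio scaling gave 1 on day 4 for NCD38 against DMSO, 11 for NCD38-β2PIPP against NCD38 and 0 between the conjugates. Subtracting GC bins gave 1 for NCD38 and 1 for NCD38-β2PIPP against DMSO on day 4. When DMSO was taken from the opposite day, 4, 7 and 7 members were past 2-fold on day 30 and 8, 10 and 11 on day 4. The causes were not tested.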
